A study of Mus musculus with 16 samples.

Results

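The transcripts of 8 chemokine ligands, Cxcl1, Cxcl2, Cxcl3, Cxcl10, Cxcl16, Ccl3, Ccl4 and Ccl6, were followed in neutrophils sorted from the blood and lung of mice with abdominal sepsis. They were chosen by name as ligands that neutrophils transcribe, and each was found once by its gene symbol among the 49315 genes counted in all 24 files. RNA was sequenced from Ly6G+/CD11b+/CD45.2+ cells of male mice 8 to 12 weeks old, either untreated (0 h) or 12 h after cecal ligation and puncture (CLP), a surgical model in which gut bacteria enter the abdomen. The mice were WT or αD KO, in which the gene of the integrin αD (CD11d, Itgad) is targeted. No source used here restricts the knockout to neutrophils, and no sham-operated mice enter the comparisons, so that surgery and sepsis cannot be told apart. The 8 groups are WT and αD KO, blood and lung, 0 h and 12 h, with 3 count files each from 2 samples per group. Sample 1 has a pair of files, named libraries 1a and 1b in what follows, and library 2 is the single file of sample 2. The study describes its sequencing as triplicates, and neither its text nor the labels say if the pair of sample 1 was made from different mice, or if mice were pooled, so p-values measure the spread among these libraries, which may be technical.

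Chemokines are small secreted proteins that guide leukocytes through G protein-coupled receptors. Cxcl1, Cxcl2 and Cxcl3 bind the receptor CXCR2, which is abundant on neutrophils, so neutrophils that secrete them can call in further neutrophils. Ccl3 and Ccl4 (macrophage inflammatory proteins 1α and 1β) attract monocytes, T cells and NK cells, and Ccl3 acts on CCR1. Cxcl10 is induced by interferon and binds CXCR3 on activated T and NK cells. Cxcl16 is made as a transmembrane protein that binds CXCR6 and is released by the proteases ADAM10 and ADAM17. Ccl6 is a CC chemokine of rodents that acts through CCR1 and is made by resting myeloid cells. Many inflammatory chemokine genes are switched on by NF-κB, a transcription factor family released from its inhibitors by bacterial products and cytokines.

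Cxcl1, Cxcl2, Cxcl3 and Cxcl10 lie on chromosome 5, and Cxcl16, Ccl3, Ccl4 and Ccl6 on chromosome 11 (build GRCm38). The first 3 are neighbours on the plus strand, with Cxcl3 from 90786103 to 90789600, Cxcl1 from 90891241 to 90893115 and Cxcl2 from 90903871 to 90905938. On chromosome 11, Ccl6 spans 83587882 to 83593087 and Ccl3 spans 83647844 to 83649355, both on the minus strand, and Ccl4 spans 83662584 to 83664683 on the plus strand. Cxcl10 is at 92346638 to 92348889 and Cxcl16 at 70453983 to 70459984, both on the minus strand. Within their transcripts, Cxcl2 and Cxcl3 share 69 windows of 100 bases, which are 3.05% of the windows of Cxcl2 and 1.88% of those of Cxcl3, and whether reads from these stretches were placed uniquely was not tested. No window of the other 6 was found in a transcript of another gene.

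The 250 bases before the RefSeq transcription start (build GRCm38.p6) were at hand for 6 of the 8 genes, all but Ccl4 and Cxcl16. They were searched on both strands for the κB consensus bound by NF-κB, for the interferon response core GAAANNGAAA, and for the AP-1 site in its TGACTCA and TGAGTCA forms. TATAAA was searched on the sense strand alone. The 4 stretches that follow are those with a κB match, shown 5′ to 3′ in lower case with the matched bases in capitals, because they set the CXCR2 ligands and Cxcl10 apart from Ccl3 and Ccl6 by sequence.
Cxcl1 (chr5:90890995-90891244, plus strand): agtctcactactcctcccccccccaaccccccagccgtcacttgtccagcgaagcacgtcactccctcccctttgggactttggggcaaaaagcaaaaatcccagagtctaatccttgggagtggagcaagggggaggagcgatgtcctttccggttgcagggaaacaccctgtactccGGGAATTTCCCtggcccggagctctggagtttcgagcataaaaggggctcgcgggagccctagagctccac
Cxcl2 (chr5:90903649-90903898, plus strand): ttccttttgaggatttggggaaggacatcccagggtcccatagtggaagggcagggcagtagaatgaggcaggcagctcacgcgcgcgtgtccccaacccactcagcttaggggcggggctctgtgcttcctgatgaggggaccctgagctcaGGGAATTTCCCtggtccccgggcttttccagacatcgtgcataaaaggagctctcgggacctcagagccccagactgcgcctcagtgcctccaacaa
Cxcl3 (chr5:90785851-90786100, plus strand): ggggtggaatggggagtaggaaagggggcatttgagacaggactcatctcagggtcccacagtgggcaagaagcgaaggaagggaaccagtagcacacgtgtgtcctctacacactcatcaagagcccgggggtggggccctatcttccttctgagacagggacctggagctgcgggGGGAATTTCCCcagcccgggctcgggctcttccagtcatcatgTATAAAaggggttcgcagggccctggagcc
Cxcl10 (chr5:92348890-92349139, minus strand): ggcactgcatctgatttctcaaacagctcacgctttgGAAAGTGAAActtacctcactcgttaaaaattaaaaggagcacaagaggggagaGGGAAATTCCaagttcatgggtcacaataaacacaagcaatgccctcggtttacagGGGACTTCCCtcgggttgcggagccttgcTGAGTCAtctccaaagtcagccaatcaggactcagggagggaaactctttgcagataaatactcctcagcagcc

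All 3 CXCR2 ligand promoters held the same 10 bases, GGGAATTTCC, starting 71 bases before the start in Cxcl1, 97 in Cxcl2 and 73 in Cxcl3, with a match on the other strand that overlaps it but for 1 base. Cxcl10 held κB matches starting at 159 and 103 bases before its start, an interferon response core starting at 213 and an AP-1 site starting at 74. TATAAA was found in Cxcl3 alone among the 6, at 30 bases before its start. Among 32536 promoter stretches of this length, 3.92% held a κB match, 2.98% the interferon response core, 4.45% an AP-1 site and 7.55% TATAAA. A match is a description of these letters, and binding was not measured.

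The libraries held 5753476 to 29984954 counts each. The 8 libraries 1b had counts for 29162 to 38844 genes against 17132 to 32666 in the other 16, and between libraries 1a and 1b of a group the chi-square per degree of freedom was 89.4 to 565.1. Itgad was at 0.0583 to 3.67 CPM in the 12 libraries labelled WT and at 12.5 to 102.0 CPM in the 12 labelled αD KO. Counts per gene cannot separate RNA made from a targeted allele from intact Itgad RNA, and groups are named by their labels. Some lung libraries stood apart from the others of their group. An axis was made from the 1336 genes other than the 8 ligands that edgeR called between 12 h and 0 h in WT lung, a choice by which WT lung libraries separate on it. On this axis, which runs from 0 (mean of the WT lung libraries at 0 h) to 1 (mean of those at 12 h), with the library being placed left out of its own mean, αD KO lung libraries 1a and 1b at 0 h lay at 0.155 and 0.0992, and library 2 lay at 1.03. At 12 h, αD KO lung libraries 1a and 2 lay at 0.101 and 0.189, and library 1b lay at 0.827. WT lung library 1b at 12 h lay at 0.665, against 1.21 and 1.05 for libraries 1a and 2. Blood libraries lay between 0.0339 and 0.226 at 0 h and between 0.809 and 0.992 at 12 h.

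The sorted cells carried neutrophil markers in every group, and their sum over 10 genes was higher at 12 h without overlap in 3 comparisons. It was 29593 to 50153 CPM at 0 h and 118228 to 220263 CPM at 12 h in WT blood, 35645 to 62801 and 128556 to 155006 CPM in αD KO blood, and 38062 to 54059 and 81991 to 144815 CPM in WT lung. EdgeR called 6, 4 and 3 of the 10 higher in these, and 1 lower in each, which was Csf3r every time. Of all genes, 13.5%, 8.75% and 9.02% were called in these comparisons, in either direction. In αD KO lung the sums overlapped, at 43311 to 94804 CPM at 0 h and 55736 to 92550.0 CPM at 12 h. B cell markers summed to 35.3 to 110.1 CPM in WT lung at 12 h against 446.4 to 809.6 CPM at 0 h, and to 42.0 to 270.5 CPM in WT blood at 12 h against 269.9 to 1225 CPM at 0 h. In αD KO blood they summed to 38.0 to 143.4 CPM at 12 h against 330.1 to 1584 CPM at 0 h, and in αD KO lung the ranges of both times overlapped. Monocyte and macrophage markers stayed between 534.2 and 2304 CPM over all libraries, with sums that overlapped between 0 h and 12 h in each tissue and genotype. Single genes of that list moved, and of 11 tested in αD KO blood 5 were called lower at 12 h and none higher, with C1qc at a log2 fold change of -4.27 and Csf1r, the receptor of a macrophage growth factor, at -2.52. In WT blood 1 was called higher and 2 lower of 10, and in WT lung 2 higher and 2 lower of 9, with Csf1r among the lower in both (-2.35 and -1.62). The higher ones were Ly6c2 in both (2.54 in each) and F13a1 in WT lung (4.18), and the others called lower were Ccr2 in WT blood (-3.08) and Adgre1 in WT lung (-1.68). A list of alveolar macrophage markers summed to 15474 to 45805 CPM in WT blood at 12 h against 47.1 to 842.5 CPM at 0 h, and to 3805 to 8965 CPM against 154.9 to 351.2 CPM in WT lung. In these 2 comparisons its largest called rise was that of Chil3, a gene that neutrophils also transcribe, and Chil3 made up most of the 12 h sums. Ear2 was also called higher in WT blood, while Siglecf of the list was called lower in both (log2 fold change -3.21 in WT blood and -3.42 in WT lung). In αD KO blood the list summed to 4105 to 19821 CPM at 12 h against 75.9 to 2836 CPM at 0 h, with Siglecf called lower and none higher. In αD KO lung the sums of both times overlapped. Fabp1 of the same list was at 0 in every library of WT and αD KO blood at 12 h. The part of these cell types, neutrophils included, in the results was not tested. In bulk RNA, fewer cells of a type and less RNA per cell cannot be told apart.

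Levels are given as CPM, TMM-scaled counts relative to library size over all 24 libraries, and levels are compared between genes as CPM per kb of exon length. At 0 h, Ccl6 had the highest median level of the 8 in every group, at 1969.7 CPM per kb in WT blood and 2290.5 in WT lung. Cxcl2 came second at 314 and 589.6, followed by Ccl3 at 103 and 312 and Ccl4 at 37.2 and 124. The other 4 ligands had medians between 0.213 and 4.79 CPM per kb in these 2 groups. In WT lung at 12 h, the order was Cxcl2 (10471 CPM per kb), Ccl3 (7460.5), Ccl4 (3870.1), Cxcl3 (764), Ccl6 (258), Cxcl1 (155), Cxcl10 (4.8) and Cxcl16 (3.54). By CPM, Cxcl2 ranked 7 and 9 among all genes in WT lung libraries 1a and 2 at 12 h, and 52 in library 1b. The heatmap of median levels shows Ccl6 at the top of every 0 h column and Cxcl2 at the top of all 12 h columns but that of αD KO lung.

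**Figure D1:**
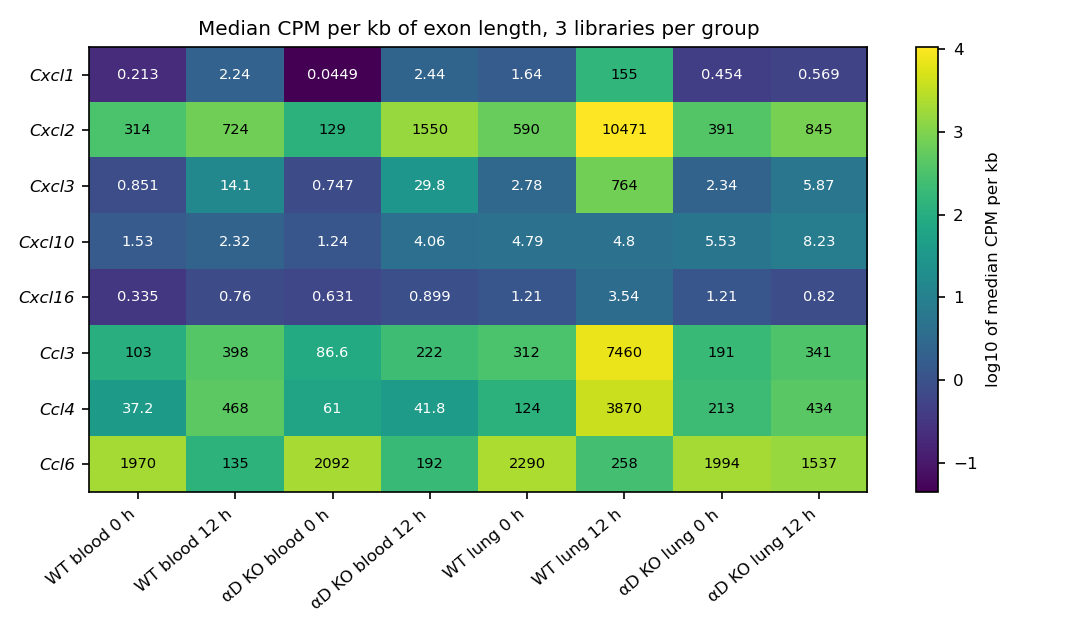
Median CPM per kb of exon length (numbers in the cells, colour on a log10 scale) of the 8 chemokine ligands (rows) in the 8 groups (columns), each the median of 3 libraries. Ccl6 is the highest in the 4 columns of 0 h and in αD KO lung at 12 h, and Cxcl2 is the highest in the other 12 h columns, reaching 10471 in WT lung.

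The first question was how far each ligand differed between 12 h and 0 h within a tissue and genotype. A gene was called where its adjusted p was below 0.05 with a log2 fold change beyond 1 in either direction. Among all genes, edgeR's quasi-likelihood test called 13.5% in WT blood, 9.02% in WT lung, 8.75% in αD KO blood and 0.0% in αD KO lung. Of the 8 ligands it called 3 in WT blood (Cxcl1 and Cxcl3 higher, Ccl6 lower), 4 in WT lung (Cxcl1, Cxcl2 and Cxcl3 higher, Ccl6 lower), 3 in αD KO blood (Cxcl2 and Cxcl3 higher, Ccl6 lower) and 0 in αD KO lung. Each count in the first 3 comparisons was a larger share of the 8 than the share of all genes. DESeq2's Wald test, the test of the study, called 5 in WT blood (21.4% of all genes), 6 in WT lung (18.9%) and 5 in αD KO blood (17.6%). In αD KO lung it gave no p for Cxcl1, Cxcl2, Cxcl3, Ccl3 and Ccl4 and called none of the other 3. The median fitted log2 fold change of the 8 was 1.57 in WT blood against -0.15 over all genes, 3.63 in WT lung against 0.03, 1.41 in αD KO blood against -0.14, and -0.75 in αD KO lung against -0.05.

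Cxcl3 had the largest fitted rise of the 8 in the 3 comparisons with calls. In WT blood its libraries 1a, 1b and 2 held 2.98, 1.63 and 6.36 CPM at 0 h and 49.2, 36 and 256 CPM at 12 h, with no overlap between the times (log2 fold change 4.71, SE 0.84, edgeR adjusted p = 0.0132, 26.2-fold). In WT lung it was at 9.91, 6.66 and 9.72 CPM at 0 h and at 2748, 50.3 and 2672 CPM at 12 h. The groups did not overlap, and library 1b at 12 h was far below the other two (log2 fold change 7.49, SE 1.28, edgeR adjusted p = 0.0157, 179.5-fold). Blood of αD KO mice had 5.85, 2.61 and 2.48 CPM at 0 h and 489, 38.8 and 104 CPM at 12 h, again without overlap (log2 fold change 5.60, SE 0.94, edgeR adjusted p = 0.0128, 48.4-fold). Their lung libraries had 8.19, 6.62 and 989 CPM at 0 h and 10.2, 243 and 20.5 CPM at 12 h. There the highest library was a 0 h library and the groups overlapped (log2 fold change -1.47, SE 1.90, edgeR adjusted p = 1). With 1 library left out of the WT blood fit, Cxcl3 was called without library 1b of either time and was not called without library 1a or 2 of either time (adjusted p 0.0953 to 0.135, log2 fold change 3.40 to 5.45). In WT lung it was called without library 1b at 12 h (log2 fold change 7.95, edgeR adjusted p = 0.000227) and not without any of the other 5 libraries (adjusted p 0.0542 to 0.221, log2 fold change 6.95 to 7.74). The αD KO blood call was lost without library 1a at 0 h (log2 fold change 6.12, edgeR adjusted p = 0.0831).

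Cxcl2 (macrophage inflammatory protein 2) had the highest median level per length of the CXCR2 ligands in every group. In WT blood its libraries were at 649, 163 and 725 CPM at 0 h and at 1496, 1489 and 2979.8 CPM at 12 h. All 12 h libraries were above all 0 h libraries, and edgeR did not call the difference (log2 fold change 1.80, SE 0.56, edgeR adjusted p = 0.0707) while DESeq2 did (log2 fold change 1.79, SE 0.46, DESeq2 adjusted p = 0.000826). Libraries with the same number varied together here, and a replicate block on that number led edgeR to call Cxcl2 (log2 fold change 1.94, edgeR adjusted p = 0.0254), as did the fit without library 1b at 0 h (log2 fold change 1.41, edgeR adjusted p = 0.0303). In WT lung Cxcl2 was at 1136, 1219 and 1609.6 CPM at 0 h and at 23786, 1659.7 and 21655 CPM at 12 h. Libraries 1a and 2 at 12 h exceeded all others, and library 1b at 12 h was just above the highest 0 h library (log2 fold change 3.37, SE 0.82, edgeR adjusted p = 0.042, 10.3-fold). Without library 1b at 12 h the rise was called (log2 fold change 3.76, edgeR adjusted p = 0.000485), and without any other single library of the 6 it was not (adjusted p 0.0975 to 0.407, log2 fold change 2.91 to 3.63). For αD KO blood, Cxcl2 was at 552, 266 and 204 CPM at 0 h and at 4337, 3206 and 1867 CPM at 12 h, with no overlap (log2 fold change 3.01, SE 0.49, edgeR adjusted p = 0.0112, 8.04-fold). It was not called there without library 1a at 0 h (log2 fold change 3.53, edgeR adjusted p = 0.0539) or at 12 h (log2 fold change 2.78, edgeR adjusted p = 0.0506). For αD KO lung, Cxcl2 was at 711, 808 and 13956 CPM at 0 h and at 1029.9, 6871 and 1747 CPM at 12 h, and the highest of the 6 was library 2 at 0 h (log2 fold change -0.36, SE 1.26, edgeR adjusted p = 1).

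Cxcl1 (KC) had the lowest median level per length of the CXCR2 ligands in every group. In WT blood it rested on 11, 2 and 17 counts in libraries 1a, 1b and 2 at 0 h and 72, 37 and 224 counts at 12 h, which are 0.399, 0.181 and 0.716 CPM and 4.2, 1.86 and 15.6 CPM. The groups did not overlap (log2 fold change 3.78, SE 0.90, edgeR adjusted p = 0.0316, 13.7-fold), and the rise was not called without library 1a or 2 of either time (adjusted p 0.171 to 0.507, log2 fold change 2.63 to 4.41). In WT lung Cxcl1 was at 3.08, 3.05 and 11.3 CPM at 0 h and at 291, 5.46 and 408 CPM at 12 h. Library 1b at 12 h fell inside the 0 h range (log2 fold change 5.13, SE 1.27, edgeR adjusted p = 0.0433, 35-fold). Without it the call held (log2 fold change 5.60, edgeR adjusted p = 0.00104), and without any other single library it was lost (adjusted p 0.113 to 0.364, log2 fold change 4.29 to 6.13). The αD KO blood counts were 2, 8 and 0 at 0 h (0.0842, 0.565 and 0 CPM), where a count of 0 allows up to 0.111 CPM by a limit of 3 counts, and 113, 7 and 64 at 12 h. That is 8.07, 0.627 and 4.57 CPM at 12 h, above every 0 h library. EdgeR did not call it (log2 fold change 4.03, SE 1.47, edgeR adjusted p = 0.122) and DESeq2 did (log2 fold change 4.05, SE 1.29, DESeq2 adjusted p = 0.0131). The αD KO lung libraries had Cxcl1 at 0.852, 0.67 and 40.6 CPM at 0 h and at 0.663, 6.68 and 1.07 CPM at 12 h (log2 fold change -1.99, SE 1.61, edgeR adjusted p = 1).

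Of all genes tested, 34.7% had no overlap between 12 h and 0 h libraries in WT blood, where Cxcl1, Cxcl2 and Cxcl3 were higher and Ccl6 lower without overlap. In WT lung the share was 28.5%, and Cxcl2, Cxcl3 and Ccl6 were without overlap. It was 32.2% in αD KO blood, and Cxcl1, Cxcl2, Cxcl3, Cxcl10 and Ccl6 were without overlap. It was 2.86% in αD KO lung, and all 8 ligands overlapped. The dot plot by library shows blood separating by time for Cxcl1, Cxcl2, Cxcl3 and Ccl6, and lung libraries of 1 group and time lying far apart.

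**Figure D2:**
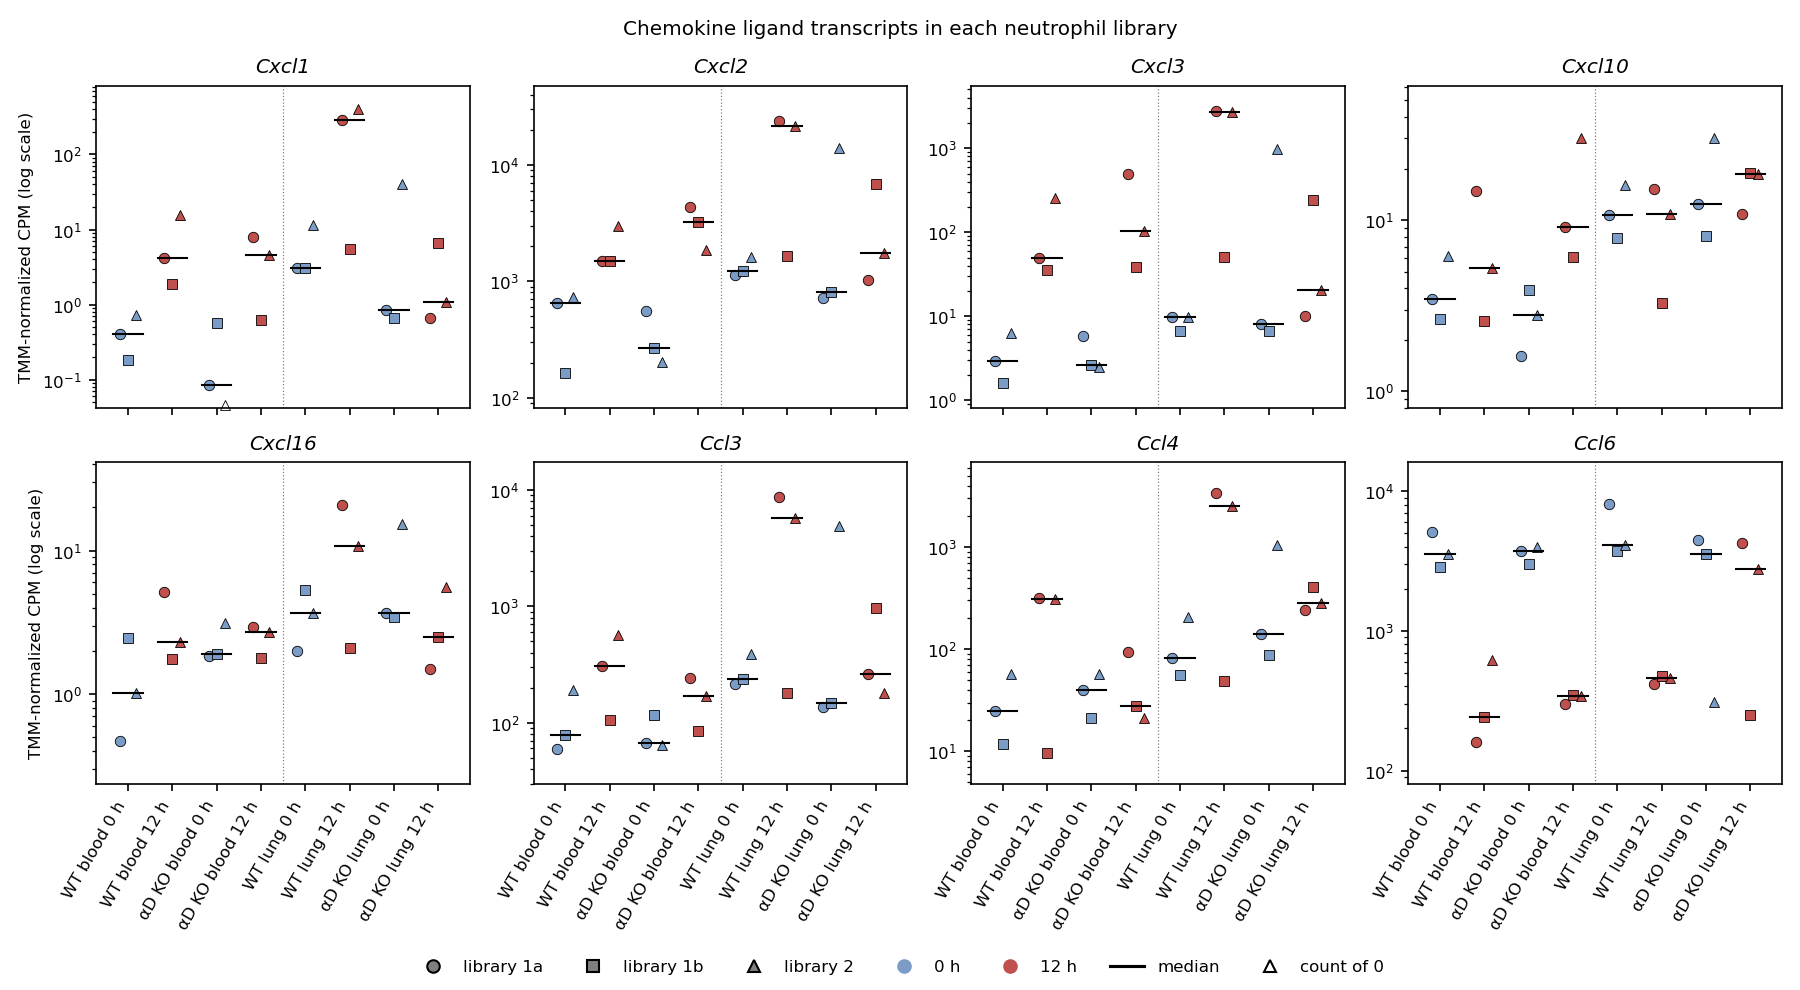
CPM (log scale) of each chemokine ligand in each of the 24 libraries, by group, with the marker shape giving the library number, the colour the time and the bar the median of 3 libraries. The open marker in the Cxcl1 panel is a count of 0 drawn at the lower edge. In lung, WT library 1b at 12 h lies within or below the 0 h range for Cxcl1, Cxcl10, Cxcl16, Ccl3 and Ccl4, and αD KO library 2 at 0 h is the highest of its 6 libraries for every gene but Ccl6.

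Ccl3 and Ccl4 were at middle levels at 0 h and were highest in the same lung libraries as Cxcl2. In WT lung Ccl3 was at 214, 239 and 387 CPM at 0 h and at 8645, 179 and 5715 CPM at 12 h. Ccl4 was at 81.5, 56.1 and 206 CPM at 0 h and at 3399, 48.5 and 2554 CPM at 12 h. For both genes library 1b at 12 h was below every 0 h library, so that the groups overlapped, and edgeR did not call Ccl3 (log2 fold change 3.90, SE 1.06, edgeR adjusted p = 0.0573) or Ccl4 (log2 fold change 3.92, SE 1.19, edgeR adjusted p = 0.076). Without library 1b at 12 h both were called, Ccl3 with log2 fold change 4.34, edgeR adjusted p = 0.00054 and Ccl4 with log2 fold change 4.39, edgeR adjusted p = 0.00141. DESeq2 called both on all 6 libraries, with adjusted p = 0.000109 for Ccl3 and 0.000491 for Ccl4. In WT blood Ccl3 was at 59.5, 78.6 and 189.8 CPM at 0 h and at 304, 106 and 565 CPM at 12 h (log2 fold change 1.33, SE 0.60, edgeR adjusted p = 0.192). Ccl4 was at 24.6, 11.9 and 57 CPM at 0 h and at 315, 9.54 and 309 CPM at 12 h, where library 1b was again the low one (log2 fold change 2.51, SE 1.03, edgeR adjusted p = 0.152). DESeq2 called it (log2 fold change 2.52, SE 0.87, DESeq2 adjusted p = 0.0189), and without library 1b at 12 h edgeR called it as well (log2 fold change 3.02, edgeR adjusted p = 0.019).

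In αD KO blood neither gene moved beyond the spread of its libraries. Ccl3 was at 66.4, 117 and 64.5 CPM at 0 h and at 243, 85.2 and 170.0 CPM at 12 h (log2 fold change 0.68, SE 0.45, edgeR adjusted p = 0.368). Ccl4 was at 40.2, 21.2 and 57.1 CPM at 0 h and at 92.8, 27.6 and 21 CPM at 12 h (log2 fold change 0.05, SE 0.55, edgeR adjusted p = 0.959). The ranges of both genes overlapped between the times. Lung libraries of αD KO mice had Ccl3 at 136, 146 and 4915 CPM at 0 h and at 261, 966 and 181 CPM at 12 h (log2 fold change -1.57, SE 1.41, edgeR adjusted p = 1), and Ccl4 was at 140.4, 87.2 and 1037 CPM at 0 h and at 242, 403 and 286 CPM at 12 h (log2 fold change -0.25, SE 0.87, edgeR adjusted p = 1). Library 2 at 0 h was the highest of the 6 for both.

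Cxcl10 stayed between 1.60 and 30.4 CPM in all 24 libraries. In WT blood it was at 3.45, 2.63 and 6.15 CPM at 0 h and at 14.8, 2.56 and 5.22 CPM at 12 h (log2 fold change 0.64, SE 0.63, edgeR adjusted p = 0.538). In WT lung it was at 10.8, 7.85 and 16.1 CPM at 0 h and at 15.2, 3.29 and 10.8 CPM at 12 h, with the 12 h libraries inside or below the 0 h range (log2 fold change -0.38, SE 0.47, edgeR adjusted p = 0.666). In αD KO blood it was at 1.6, 3.88 and 2.78 CPM at 0 h and at 9.14, 6.09 and 30.4 CPM at 12 h. Of the 4 comparisons over time, this was the one in which the interferon-induced ligand did not overlap between the times. DESeq2 called it (log2 fold change 2.20, SE 0.68, DESeq2 adjusted p = 0.0103) and edgeR did not (log2 fold change 2.14, SE 0.70, edgeR adjusted p = 0.092). For αD KO lung it was at 12.4, 8.11 and 30.1 CPM at 0 h and at 10.9, 18.9 and 18.6 CPM at 12 h (log2 fold change 0.07, SE 0.53, edgeR adjusted p = 1).

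Cxcl16, the ligand that is shed from the membrane, was not called by either tool in any of the 4 comparisons. In WT lung it was at 1.99, 5.27 and 3.65 CPM at 0 h and at 20.7, 2.09 and 10.7 CPM at 12 h (log2 fold change 1.42, SE 0.69, edgeR adjusted p = 0.23). Library 1b at 12 h was the lowest of the 12 h libraries and within the 0 h range, and without it the rise passed the threshold (log2 fold change 1.71, edgeR adjusted p = 0.0461). In WT blood the values were 0.472, 2.44 and 1.01 CPM at 0 h and 5.13, 1.76 and 2.3 CPM at 12 h (log2 fold change 0.91, SE 0.83, edgeR adjusted p = 0.513), and in αD KO blood they were 1.85, 1.91 and 3.12 CPM and 2.93, 1.79 and 2.72 CPM (log2 fold change -0.12, SE 0.57, edgeR adjusted p = 0.915). In αD KO lung they were 3.64, 3.42 and 15.2 CPM at 0 h and 1.49, 2.48 and 5.62 CPM at 12 h (log2 fold change -1.14, SE 0.74, edgeR adjusted p = 1). The sheddase genes Adam10 and Adam17 were tested in all 4 comparisons and called in none.

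Ccl6 moved opposite to the CXCR2 ligands. In WT blood it was at 5101, 2881 and 3536 CPM at 0 h and at 160.2, 243 and 614 CPM at 12 h, with every 12 h library below every 0 h library (log2 fold change -3.71, SE 0.60, edgeR adjusted p = 0.00894, 13.1-fold lower). In WT lung it was at 8083, 3751 and 4111 CPM at 0 h and at 417, 475 and 462 CPM at 12 h (log2 fold change -3.54, SE 0.52, edgeR adjusted p = 0.0101, 11.6-fold lower). Here library 1b at 12 h, which lay below libraries 1a and 2 for the other 7 ligands, was with libraries 1a and 2. Ccl6 in αD KO blood was at 3755, 2999 and 3964 CPM at 0 h and at 301, 349 and 344 CPM at 12 h (log2 fold change -3.64, SE 0.30, edgeR adjusted p = 0.0012, 12.4-fold lower). By rank among all genes, Ccl6 went from 21, 14 and 13 in the 0 h libraries to 590, 480 and 499 in the 12 h libraries of αD KO blood. Lung of αD KO mice had it at 4509, 3579.8 and 311 CPM at 0 h and at 4276, 252 and 2759 CPM at 12 h. Library 2 at 0 h and library 1b at 12 h were the low ones, and the groups overlapped (log2 fold change -0.31, SE 1.07, edgeR adjusted p = 1). In αD KO blood the fall was called without each library in turn (log2 fold change from -3.70 to -3.51), in WT blood not without library 1a or 2 of either time (adjusted p 0.101 to 0.196, log2 fold change -4.29 to -3.28), and in WT lung not without library 1a or 2 of either time (adjusted p 0.104 to 0.145, log2 fold change -3.76 to -3.11).

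**Figure D3:**
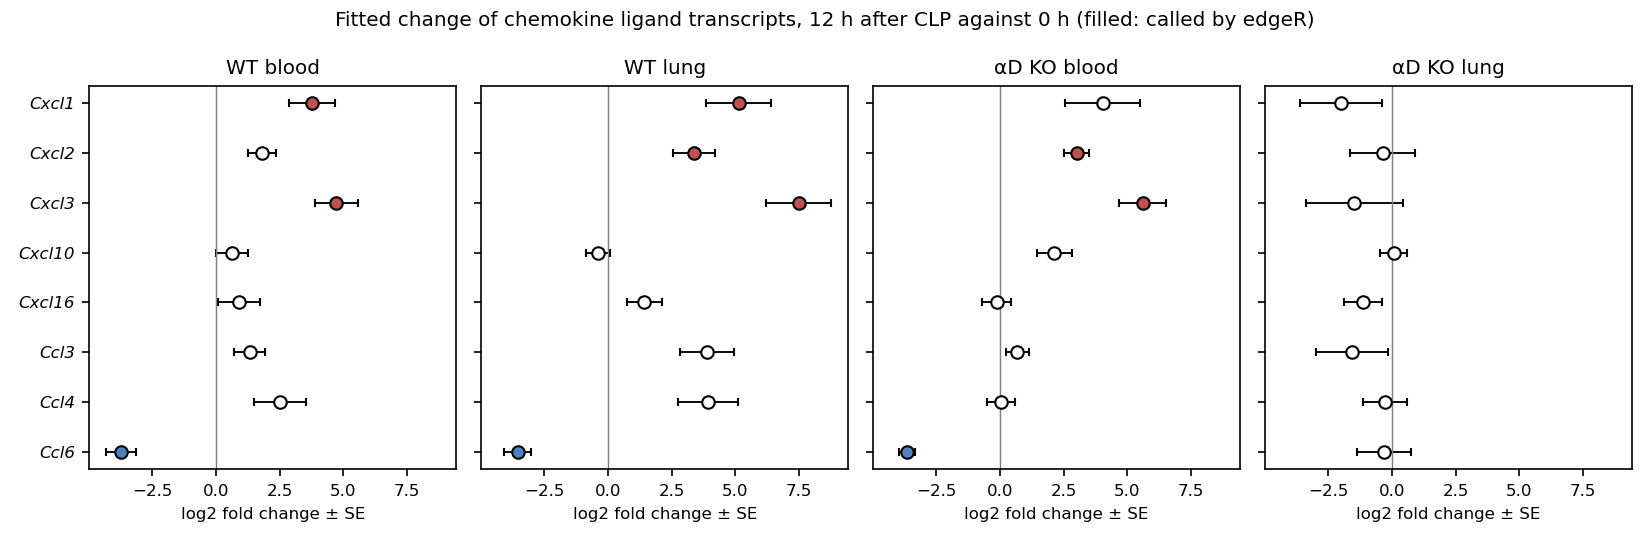
Fitted log2 fold change of each chemokine ligand at 12 h against 0 h (point) with its standard error (bar) in the 4 comparisons, red where edgeR called the gene higher, blue where lower and open where it was not called. Cxcl3 has the largest rise in WT blood, WT lung and αD KO blood, Ccl6 falls by 11.6- to 13.1-fold in these 3, and every bar in αD KO lung belongs to an open point.

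The αD KO lung comparison rests on libraries that stood apart. Library 2 at 0 h and libraries 1a and 2 at 12 h lay where libraries of the other time lay, and whether their time labels were exchanged was not tested. Each αD KO lung value is given by label and depends on those labels. Without library 2 at 0 h the fitted log2 fold change was 1.92 for Cxcl1, 2.15 for Cxcl2, 3.69 for Cxcl3, 1.80 for Ccl3 and 1.50 for Ccl4, each positive where the fit of all 6 libraries was negative, and none of the 8 was called. The plot of Cxcl2 against Ccl6 shows this in the libraries themselves. Over the 24 libraries, the 11 with Ccl6 at 614.1 CPM or less had Cxcl2 at 1489 CPM or more, and the 13 with Ccl6 at 2759 CPM or more had Cxcl2 at 1747 CPM or less. All blood libraries and all WT lung libraries were on the side of their time by Ccl6, and αD KO lung library 2 at 0 h and libraries 1a and 2 at 12 h were on the other side. By edgeR, 72 of 17939 genes in αD KO lung had an unadjusted p under 0.05 and none of them was a ligand of the 8, and DESeq2 called 0 genes.

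**Figure D4:**
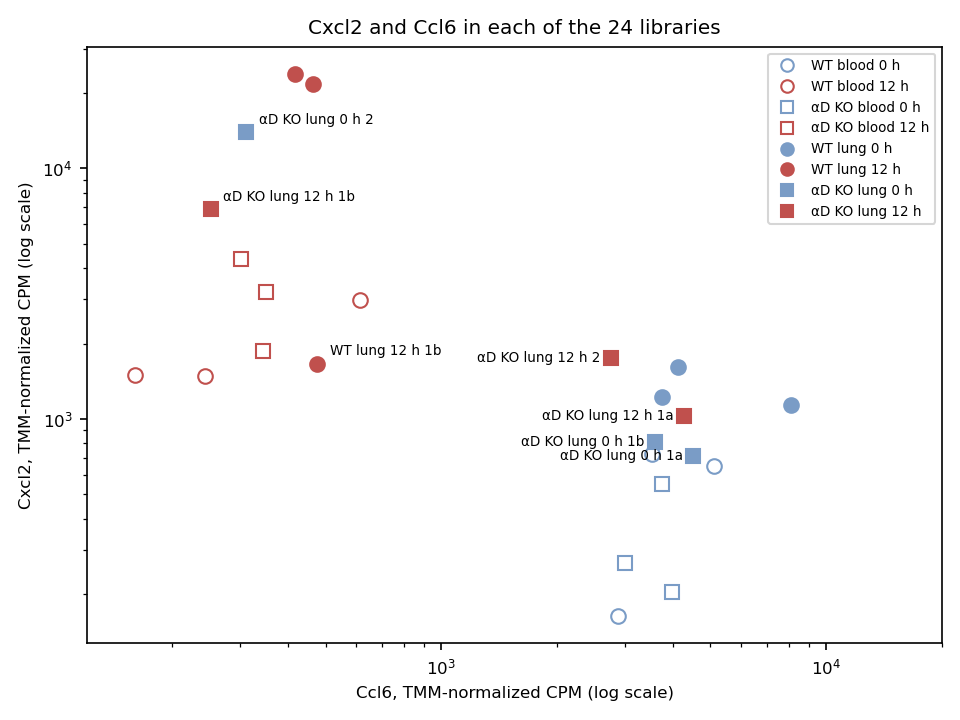
Cxcl2 against Ccl6, both in CPM on log scales, with 1 point for each of the 24 libraries (blue 0 h, red 12 h, open blood, filled lung, circles WT, squares αD KO). The 6 αD KO lung libraries and WT lung library 1b at 12 h are labelled, and αD KO lung library 2 at 0 h sits with the 12 h libraries while libraries 1a and 2 at 12 h sit with the 0 h libraries.

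The second question was whether the 12 h change in lung differed from that in blood, tested as an interaction over 12 libraries. Of the 8 ligands 0 were called in WT and 0 in αD KO, with 0.0% of 23497 genes called in WT and 0.0% of 22218 in αD KO. In WT the fitted difference, lung change minus blood change on the log2 scale, was 2.67 (SE 1.48, edgeR adjusted p = 0.876) for Cxcl3, 2.44 (SE 1.35, edgeR adjusted p = 0.876) for Ccl3 and 1.50 (SE 1.09, edgeR adjusted p = 0.876) for Cxcl2. It was 1.30 (SE 1.68, edgeR adjusted p = 0.903) for Cxcl1, 1.23 (SE 1.73, edgeR adjusted p = 0.912) for Ccl4 and 0.38 (SE 1.19, edgeR adjusted p = 0.947) for Cxcl16. For Cxcl10 it was -1.20 (SE 0.90, edgeR adjusted p = 0.876) and for Ccl6 0.03 (SE 0.75, edgeR adjusted p = 0.992), the nearest to 0. All 8 had an unadjusted p over 0.05, against 1290 of all genes under it, and DESeq2 called 107 genes and none of the 8. The fitted rises of Cxcl2, Cxcl3 and Ccl3 were larger in lung than in blood, and the difference did not exceed the spread of these libraries. Without the 4 libraries 1b of the fit, 1 ligand was called, Cxcl2, with a difference of 2.31 (edgeR adjusted p = 0.0302), in a fit that called 7.41% of all genes. The median difference of the 8 was 1.26 against 0.56 over all genes.

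In αD KO the differences were negative for 7 of the 8. They were -7.64 (SE 2.45, edgeR adjusted p = 0.403) for Cxcl3, -6.77 (SE 2.31, edgeR adjusted p = 0.403) for Cxcl1, -3.85 (SE 1.48, edgeR adjusted p = 0.403) for Cxcl2, -2.85 (SE 1.56, edgeR adjusted p = 0.547) for Ccl3 and -2.51 (SE 0.89, edgeR adjusted p = 0.403) for Cxcl10. For Cxcl16 and Ccl4 they were -1.31 (SE 0.96, edgeR adjusted p = 0.694) and -0.67 (SE 1.14, edgeR adjusted p = 0.873), and for Ccl6 the difference was 3.20 (SE 1.26, edgeR adjusted p = 0.407). Of the 8, 5 had an unadjusted p under 0.05, as had 2352 of all genes, and DESeq2 called 289 genes, gave no p for Ccl3 and called none of the other 7. These values include αD KO lung library 2 at 0 h. Without that library the differences were -2.19 for Cxcl3, -2.58 for Cxcl1 and -1.10 for Cxcl2, and those of Ccl3 and Ccl4 turned positive, at 0.73 and 1.20.

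**Figure D5:**
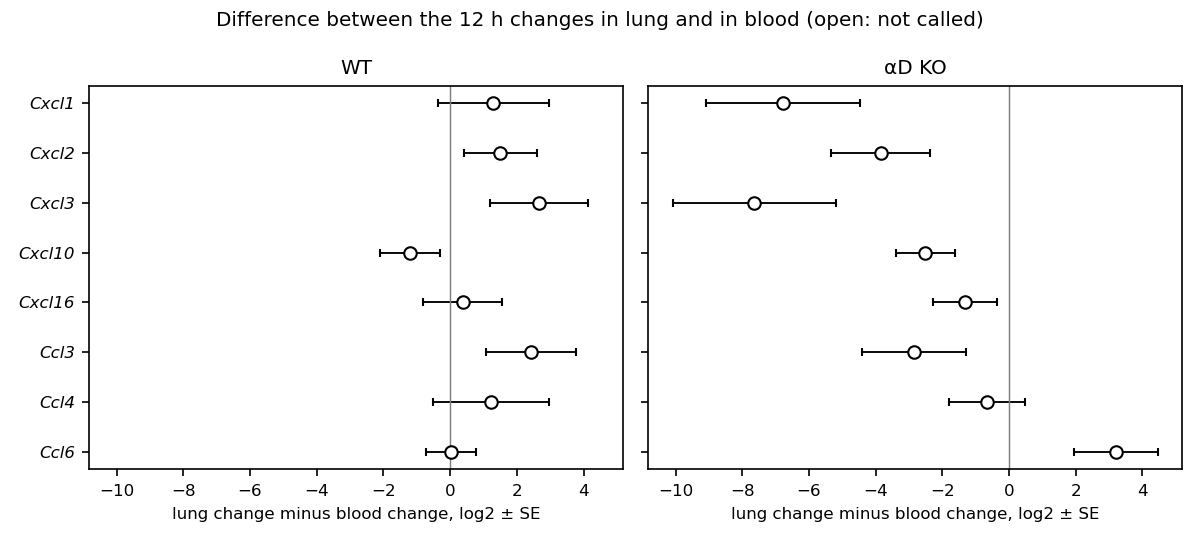
Lung change minus blood change, on the log2 scale, of each chemokine ligand in WT (left) and αD KO (right), with points for the edgeR estimate and bars for its standard error. In WT the estimates run from -1.20 (Cxcl10) to 2.67 (Cxcl3), in αD KO from -7.64 (Cxcl3) to 3.20 (Ccl6), and none was called.

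Lung and blood were also compared at a fixed time. At 0 h in WT, all 8 ligands had a fitted level higher in lung, and for 5 of them (Cxcl1, Cxcl2, Cxcl3, Cxcl10 and Ccl3) every lung library was above every blood library, where 5.72% of all genes had no overlap. For Cxcl1, for example, the lung libraries were at 3.08, 3.05 and 11.3 CPM and the blood libraries at 0.399, 0.181 and 0.716 CPM. By edgeR none of the 8 was called, with 0.0% of genes called, and an unadjusted p under 0.05 was reached by 406 genes, 6 ligands among them. DESeq2 called Cxcl1 alone of the 8 (log2 fold change 3.66, SE 0.82, DESeq2 adjusted p = 0.00379), with 0.294% of genes called. The replicate block, which the deviations of these libraries allow, called no ligand either. At 0 h in αD KO, 7 of the 8 (all but Ccl6) had no overlap and were higher in lung, where 6.61% of all genes had none. That held with library 2, whose lung values were the highest, and without it, since libraries 1a and 1b were also above blood. Markers of lung structural cells summed to 118.1 to 1109 CPM in these lung libraries against 27.2 to 38.7 CPM in blood, with a median log2 fold change of 3.42 over 12 genes and none called. Other marker lists were lower in lung, with median log2 fold changes of -4.64 for platelet, -3.55 for T and NK cell, -2.91 for B cell and -2.71 for monocyte and macrophage markers, none of them called. In WT at 0 h, platelet markers summed to 11.4 to 33.05 CPM in lung against 48.4 to 152.9 CPM in blood, with none called. Lung structural markers overlapped there, at 52.7 to 177.3 CPM in lung and 27.0 to 315.8 CPM in blood, with a median log2 fold change of 0.17 and none called. The part of these cell types in the lung and blood differences was not tested. In αD KO at 0 h edgeR called none of the 8 (0.0% of genes, with 553 below 0.05 before adjustment). DESeq2 called Cxcl10 (log2 fold change 2.56, SE 0.66, DESeq2 adjusted p = 0.0193) and Ccl4 (log2 fold change 3.40, SE 0.83, DESeq2 adjusted p = 0.00868) there. It called 0.568% of genes and gave no p for Cxcl1, Cxcl2, Cxcl3 and Ccl3.

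At 12 h in WT, Cxcl1, Cxcl2, Cxcl3 and Ccl3 were called higher in lung by DESeq2, where 8.28% of genes were called, and none of the 8 by edgeR, where 0.0442% were. DESeq2's values were log2 fold change 5.07, SE 1.02, DESeq2 adjusted p = 6.59e-05 for Cxcl1, log2 fold change 2.97, SE 0.70, DESeq2 adjusted p = 0.00113 for Cxcl2, log2 fold change 4.03, SE 1.00, DESeq2 adjusted p = 0.00215 for Cxcl3 and log2 fold change 3.92, SE 0.91, DESeq2 adjusted p = 0.000806 for Ccl3. In each case WT lung library 1b fell inside the range of the blood libraries, so 0 of the 8 were free of overlap, against 22.4% of all genes. Without that library edgeR called 6 of the 8 and 20.2% of genes, and a replicate block on the library number gave 1 of the 8 and 65 genes. At 12 h in αD KO, edgeR called none of the 8 (0.0548% of genes) and DESeq2 called Ccl4 (log2 fold change 3.03, SE 0.62, DESeq2 adjusted p = 0.000101) and Ccl6 (log2 fold change 2.97, SE 0.72, DESeq2 adjusted p = 0.00172), both higher in lung, with 10.2% of genes called. Ccl4 was the 1 ligand without overlap, at 242, 403 and 286 CPM in lung and 92.8, 27.6 and 21 CPM in blood, where 28.8% of all genes had none. The Ccl6 difference rested on lung libraries 1a and 2, which lay with the 0 h libraries on the axis above, and without lung library 1b edgeR called 2 of the 8 and 11.2% of all genes. Before adjustment, 6 of the 8 were below 0.05 in WT, as were 2454 of 13590 genes, and 3 in αD KO, as were 3240 of 14592 genes, by edgeR. At 12 h the lung structural markers summed to 87.5 to 352 CPM in WT lung against 21.1 to 22.2 CPM in blood, with none called. In αD KO they summed to 50.1 to 200.4 CPM in lung against 10.9 to 31.4 CPM in blood, where Scgb1a1 and Sftpa1 were called higher in lung (log2 fold change 7.94 and 5.48).

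The last question was whether αD KO and WT neutrophils differed. In blood, edgeR called none of the ligands at 0 h (7 tested, Cxcl1 being too low, with 0.0115% of genes called) or at 12 h (0.0% of genes), and DESeq2 called none at either time. None of the ligands in blood was below 0.05 before adjustment by edgeR. In lung at 0 h edgeR called none (0.0% of genes), with 1 of the 8 below 0.05 before adjustment, and DESeq2 gave no p for Cxcl1, Cxcl2, Cxcl3, Ccl3 and Ccl4 and called none of the other 3. At 12 h in lung edgeR called none (0.0% of genes), 4 of the 8 had an unadjusted p under 0.05, as had 1390 of all genes, and DESeq2 called Cxcl1, which was lower in αD KO (log2 fold change -6.01, SE 1.15, DESeq2 adjusted p = 0.000243), with 1.15% of genes called and no p for Cxcl3. Cxcl1 stood there at 0.663, 6.68 and 1.07 CPM in αD KO libraries, against 291, 5.46 and 408 CPM for WT, and αD KO library 1b exceeded WT library 1b. The libraries overlapped between the genotypes for every ligand tested, in both tissues and at both times. Without WT library 1b edgeR called 2 of the 8 and 1.11% of all genes in lung at 12 h. Without the libraries 1b of both groups it called 7 of the 8 and 30.1% of all genes, in a fit that sets αD KO libraries 1a and 2, both near 0 on the axis above, against WT libraries 1a and 2.

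The 12 h change itself was compared between the genotypes as an interaction. In blood it differed for 0 of the 8 by edgeR (0.0% of genes, none of the 8 below 0.05 before adjustment) and by DESeq2. In lung edgeR called 0 (0.0% of genes) although 7 of the 8 had an unadjusted p under 0.05, as had 2432 of 23211 genes. DESeq2 called Cxcl1 (log2 fold change -7.10, SE 2.22, DESeq2 adjusted p = 0.0493) and Ccl3 (log2 fold change -5.47, SE 1.69, DESeq2 adjusted p = 0.0483), with 1.51% of genes called and no p for Cxcl3. Leaving out the libraries 1b, edgeR called 5 of the 8 and 13.2% of all genes. The αD KO lung libraries that stood apart enter these fits, and their part in the difference was not tested.

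Genes around the ligands were read from lists written with earlier results of these data known. Of 16 genes of the NF-κB pathway and its feedback, all tested, edgeR called 3 higher and 1 lower at 12 h in WT blood, 6 higher and 0 lower in WT lung, 7 higher and 1 lower in αD KO blood, and 0 in αD KO lung, against 13.5%, 9.02%, 8.75% and 0.0% of all genes called. Their median log2 fold change was 0.97, 2.46, 1.44 and -0.17 in the 4 comparisons, against -0.15, 0.03, -0.14 and -0.05 over all genes. Tnf, the cytokine tumour necrosis factor, rose in the first 3, by 2.58 (SE 0.49) in WT blood, 4.66 (SE 0.95) in WT lung and 2.68 (SE 0.39) in αD KO blood on the log2 scale. Tnip1, which restrains NF-κB, rose by 1.91 (SE 0.46), 3.98 (SE 0.59) and 2.78 (SE 0.31). Relb, a subunit of NF-κB, rose in WT lung by 3.01 (SE 0.62) and in αD KO blood by 2.13 (SE 0.26). The one called lower in WT blood was Il1b, with a log2 fold change of -2.91 (SE 0.59).

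The receptors went the other way where they were called. Of 9 receptors of the 8 ligands, 7 or 8 were tested in each comparison. Of these, 3 were called lower in WT blood, 2 in WT lung, 3 in αD KO blood and 0 in αD KO lung, with none higher. Of all genes, 13.5%, 9.02%, 8.75% and 0.0% were called in these comparisons, in either direction. Cxcr3, the receptor of Cxcl10, fell in WT blood, WT lung and αD KO blood, with log2 fold changes of -6.75 (SE 0.99), -4.18 (SE 0.53) and -5.54 (SE 0.90). Ccr3, an eosinophil receptor, fell in the same 3, with -2.97 (SE 0.75), -2.97 (SE 0.61) and -5.53 (SE 0.93). Cxcr1, a close relative of CXCR2, fell in blood, with -3.05 (SE 0.49) in WT and -3.31 (SE 0.59) in αD KO. T and NK cells usually carry CXCR3, and their markers summed to at most 32.7 CPM in all libraries but 1 of αD KO blood at 0 h (436.2 CPM), and their part in these falls was not tested. Of 29 other chemokine ligands, 8 to 14 were tested. Called lower were 1 of 9 in WT blood and 1 of 8 in αD KO blood, near the shares of all genes, and none was called in lung. These were Ppbp in WT, with a log2 fold change of -3.06 (SE 0.70), and Cxcl5 in αD KO, with -5.22 (SE 1.12). Cxcl5 was low in αD KO blood at both times, at 0.918 to 1.26 CPM at 0 h and 0 to 0.0715 CPM at 12 h. Ppbp is a platelet chemokine and itself 1 of the 9 platelet markers, so their sum is not independent of it. Platelet markers, Ppbp included, summed to 7.52 to 34.2 CPM in WT blood at 12 h against 48.4 to 152.9 CPM at 0 h. The same markers in αD KO blood summed to 6.09 to 54.2 CPM at 12 h against 31.6 to 825.9 CPM at 0 h. In each genotype 3 of 9 were called lower, Ppbp among them in WT. Of interferon-stimulated genes, which share their inducer with Cxcl10, 1 of 14 tested was called lower in WT blood, 3 of 15 in WT lung and 1 of 15 in αD KO blood, with none higher, against 13.5%, 9.02% and 8.75% of all genes called in either direction. The counts in blood are near or below those shares. Those in WT lung included Oasl2, with a log2 fold change of -2.77 (SE 0.54), and Ifit3, with -2.33 (SE 0.49).

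For each ligand, the 3 genes with the most similar profile over the 24 libraries were taken among 6637 genes with a mean of at least 10 CPM, by Pearson's r of log2 CPM. The points share depth, library type and the 0 h to 12 h split, and r is given as a description. Cxcl2 was most like Nfkbiz (r = 0.958), an inducible NF-κB regulator, Tgm2 (0.956) and Tnfaip3 (0.952), the A20 feedback inhibitor. Cxcl3 was most like Pfkfb3 (0.975), a glycolytic regulator, Dusp16 (0.972) and Arf2 (0.962). Cxcl1 was most like Ccl3 (0.910), Cxcl2 (0.899) and Tgm2 (0.896). Ccl3 was most like Bcl2l11 (0.942), Grk5 (0.930) and A930007I19Rik (0.928), and Ccl4 like the cytokine gene Osm (0.902), Bcl2a1b (0.894) and Ccl3 (0.890). Ccl6 was most like Fgl2 (0.982), Gm16556 (0.981) and Cd101 (0.978). Cxcl16 (Heg1 0.858, Ric1 0.803, Zbtb37 0.802) and Cxcl10 (Gm44292 0.754, Clec4e 0.713, Tnfaip3 0.713) had the least similar partners.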

How the data were processed

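The deposited files hold read counts per gene, which the authors made by trimming with Trimmomatic 0.36, aligning with STAR 2.5.2b to the mouse genome (GRCm38, also named mm10 in the submitters' processing notes) and counting unique reads in exons. RNA came from the RNeasy Plus Mini kit, with SMART-Seq v4 amplification and Nextera XT libraries, which do not mark strand. The 24 files hold 49315 genes each and no row without a gene, and 48970 were named by the GRCm38 annotation.

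Genes were kept by edgeR's filterByExpr and tested with edgeR 4.0.16 (TMM, quasi-likelihood F test, Benjamini-Hochberg over all genes tested) on the groups compared alone, each file entering as a library. Calls needed an adjusted p below 0.05 and, except for interactions, a log2 fold change beyond 1 in either direction. DESeq2 1.42.0, other normalization and filters, fits without each library, without libraries 1b, with sample 1 summed, of all groups at once and blocked on the library number were alternatives. Same-numbered libraries deviated together (each correlation over 0.1) in 6 of 12 comparisons, WT blood over time among them (0.459, 0.591 and 0.117), so the numbers were read as a pairing there by the data and not by the labels. In each group library 1b had counts for more genes than the others. Whether the shared deviations come from mice or from the type of library was not tested. Scripts were tested on simulated data. An exact permutation test of 3 against 3 cannot go below p = 0.1. The total counts behind the levels bound counting error only.

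The ligands, lists and tests were chosen with earlier results of these data known. Named were all 8 ligands in every comparison, in each list at most 5 called genes with the largest change, and the 3 genes most alike to each ligand. Fold changes were printed for the 12 h changes and lung and blood differences, and elsewhere for ligands called by a tool. Values of 1 called gene of the lists are not reported here.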

Additional observations from a re-analysis of the deposited data

How the results depend on the processing

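Of 720 fold changes of the 8 ligands recomputed under the alternatives, 597 kept their direction and side of the threshold, 31 gained and 46 lost a call, and 46 turned sign. None of the 130 that belong to the 10 called results turned sign, and 46 of them lost the call. By setting, the number of ligands called (with the share of all genes called in the same fit) was, for 12 h against 0 h in WT blood (3, 13.5%), 5 by DESeq2 (21.4%), 1 with all 8 groups in one fit (4.12%), 5 with the files of sample 1 summed (15.9%) and 5 without libraries 1b (23.1%), and 0 to 4 leaving out 1 library (0.00999% to 18.4%). In WT lung (4, 9.02%) it was 2 with all groups (1.65%), 7 summed (12.3%), 7 without libraries 1b (37.2%) and 2 with the replicate block (6.01%), and 0 to 7 leaving out 1 library (0.0% to 25.3%). In αD KO blood (3, 8.75%) it was 5 unfiltered (4.05%), 5 by DESeq2 (17.6%), 0 with all groups (0.236%), 2 summed (3.84%) and 6 without libraries 1b (11%), and 1 to 3 leaving out 1 library (0.456% to 8.74%). From 0, it went to 1 without libraries 1b (7.41%) for lung minus blood in WT, to 2 by DESeq2 (1.51%) and 5 without libraries 1b (13.2%) for αD KO minus WT in lung, to 1 unfiltered (0.207%) for αD KO against WT in blood at 12 h, to 2 unfiltered (0.489%), 1 by DESeq2 (1.15%), 7 without libraries 1b (30.1%) and 0 to 2 leaving out 1 library (0.0% to 1.11%) for the same in lung, and to 1 by DESeq2 (0.294%) for lung against blood in WT at 0 h. In WT at 12 h that comparison gave 4 unfiltered (1.59%), 4 by DESeq2 (8.28%), 5 summed (4.47%), 6 without libraries 1b (28.2%), 1 with the replicate block (0.478%) and 0 to 6 leaving out 1 library (0.0% to 20.2%). In αD KO it gave 2 unfiltered (0.144%) and 2 by DESeq2 (0.568%) at 0 h, and at 12 h 3 unfiltered (3.13%), 2 by DESeq2 (10.2%), 2 summed (8.27%), 4 without libraries 1b (34.3%) and 0 to 2 leaving out 1 library (0.0% to 11.2%).

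Signs turned as follows, with ranges over fits that leave out 1 library. In WT blood Cxcl10 ranged from -0.20 to 1.15. In αD KO blood Cxcl16 was 0.11 with all groups (range -0.21 to 0.21), and Ccl4 was -0.10 summed and -0.16 with the replicate block (range -0.81 to 0.46). In αD KO lung the replicate block gave 0.36 for Cxcl2, 0.23 for Cxcl3, 0.29 for Ccl3 and 0.50 for Ccl4, and ranges were -3.97 to 1.92 for Cxcl1, -1.87 to 2.15 for Cxcl2, -4.41 to 3.69 for Cxcl3, -2.94 to 1.80 for Ccl3 and -0.85 to 1.50 for Ccl4, the upper ends without library 2 at 0 h. There Cxcl10 was -0.025 unfiltered, -0.069 with all groups, -0.22 summed and -0.53 without libraries 1b (range -0.26 to 0.69), and Ccl6 was 0.29 summed and 0.50 without libraries 1b (range -0.91 to 0.30). For lung minus blood in WT, Cxcl16 ranged from -0.50 to 0.85, and Ccl6 was -0.14 unfiltered, -0.055 with all groups, -0.29 summed and -0.30 without libraries 1b (range -0.44 to 0.59). In αD KO, Ccl3 ranged from -3.97 to 0.73 and Ccl4 from -1.15 to 1.20. Where the numbers pair the libraries, the replicate block changed no call of a ligand beyond those given beside the results. The cause of these changes was not tested. Leaving out 1 library leaves 2 against 3 in a comparison of 2 groups. Some of these fits lost calls and others gained them, as in WT lung without library 1b at 12 h (7 ligands against 4). The part of the smaller number of samples was not tested.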
